A study of Mus musculus with 9 samples.

Results

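The comparison described here set 3 mammary tumors of mice given free Talazoparib intravenously (i.v. TLZ, also called treated below) against 3 mammary tumors of mice given saline, 6 of the 9 tumors sequenced in the series, over every gene that passed a count filter. The table listed 35275 genes, of which 15821 were tested. Every mouse carried Brca1Co/Co;MMTV-Cre;p53+/-, the saline controls included, and whether Brca1 was deleted in each tumor was not tested. In this strain the MMTV promoter, active mainly in mammary epithelium, drives Cre, which deletes the floxed part of Brca1, and 1 allele of Trp53 is lost from the germline. The i.v. TLZ mice had received 5 doses of 0.33 mg/kg at 3 doses a week. Each tumor arose by itself in its host, so the tumors of a group did not share a clone. The free drug came from a DMSO stock that was thinned with saline, whereas the controls are labelled saline, and an effect of the solvent cannot be told apart from one of the drug. The question was which transcripts differed after a short course of the free drug.

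Talazoparib blocks the catalytic site of PARP1 and PARP2, enzymes that mark single-strand breaks, and holds them on DNA. Forks that meet a trapped enzyme break, and the break is normally mended by homologous recombination, for which BRCA1 is needed. Cells without BRCA1 are for this reason sensitive to PARP inhibitors, and damage of this kind is known to halt the cell cycle in S and G2 phase.

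Total counts were 18343874 to 21194980 in the 6 tumors. Values below are CPM (counts scaled to a library of 1000000) after TMM scaling, given in the order tumor 1, 2 and 3 of each group, and where one set of 3 values is set against another the saline tumors come first. Fold changes are i.v. TLZ over saline on the log2 scale. The epithelial markers Epcam, Krt8, Krt18 and Cdh1 were high in all 6 tumors, with Epcam between 604 and 1368 CPM. Saline tumor 3 stood apart from the rest. Its highest Spearman rho with any of the other 5 tumors over the tested genes was 0.875, whereas the highest rho of every other tumor lay between 0.930 and 0.954. The basal keratin gene Krt5 was at 1849 CPM in it and at 2.30 to 72.9 CPM in the other 5. Where a fold change or count below was moved strongly by saline tumor 3, the value without it is given beside it or that tumor is named. The biological coefficient of variation was 61.2% in the saline group and 51.0% in the i.v. TLZ group. It was 32.1% in the remaining tumors of the series, which also entered the edgeR fit and its estimate of spread.

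Across all tested genes, edgeR's quasi-likelihood test called none, with a share of 0.0% and a smallest adjusted p of 0.242 for Col2a1. At an unadjusted p under 0.05, 777 genes (4.91%) were higher and 866 (5.47%) were lower in i.v. TLZ tumors, and the median log2 fold change over all genes was -0.03. In 947 genes (5.99%) all 3 i.v. TLZ tumors lay above all 3 saline tumors, and in 822 (5.2%) they lay below. With 3 tumors a side an exact permutation test of a single gene cannot give a two-sided p under 0.1. DESeq2 fitted to the 6 tumors called 47 genes higher (0.268%) and 45 lower (0.257%) at an adjusted p under 0.05, and in 79 of those 92 genes the groups did not overlap. On simulated counts of this design DESeq2 also called genes that had not been altered, which edgeR did not. edgeR in turn missed more of the altered genes than DESeq2 did. The counts were drawn from edgeR's estimates of spread, and edgeR was fitted to 9 tumors but DESeq2 to 6. The simulation therefore does not rank the tools, and calls by DESeq2 alone remain uncertain. The p-values quoted for single genes below are unadjusted edgeR values unless named otherwise, and no gene passed the adjusted threshold of edgeR. The spread behind these p-values was estimated over all 9 tumors of the series. With edgeR fitted to the 6 tumors alone, fewer genes had an unadjusted p under 0.05 on either side.

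PARP genes, which encode the targets of the drug, come first. Parp1, the main target, was at 172, 135 and 156 CPM in the saline tumors and 86.1, 52.3 and 115 CPM in the treated tumors. All 3 i.v. TLZ tumors were below all 3 saline tumors (log2 fold change -0.87 ± 0.31 (SE), unadjusted p = 0.0194, edgeR adjusted p = 0.443). Parp2 and Parg, which encodes the enzyme that removes poly(ADP-ribose), overlapped between the groups, at 15.6, 17.2 and 32.8 against 21.4, 19.5 and 17.6 CPM and at 56.1, 40.4 and 47.4 against 34.2, 42.9 and 35.5 CPM. Lig3, the ligase of single-strand break repair, was at 100.306, 56.9 and 103 against 34.4, 30.4 and 30.1 CPM and its groups did not overlap (log2 fold change -1.46 ± 0.39 (SE), unadjusted p = 0.00369). Of the 19 tested PARP and single-strand break repair genes, 3 were lower and 0 higher at p under 0.05 (5.47% and 4.91% of all genes). Their median log2 fold change of -0.17 became 0.07 without saline tumor 3.

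Brca1 was at 32.6, 29.6 and 42.7 CPM in the saline tumors and 11.8, 9.46 and 31.5 CPM in the treated tumors. In i.v. TLZ tumor 3 it lay among the saline values, and in the other 2 it lay below them (log2 fold change -0.99 ± 0.44 (SE), unadjusted p = 0.0473). The counts are per gene and do not show whether the reads came from the floxed part. Trp53 was at 23.4, 34.6 and 45.6 against 33.01, 38.9 and 31.1 CPM, with wide overlap (log2 fold change -0.01 ± 0.49, SE). Slfn9, a Schlafen family member, was at 19.7, 16.8 and 29.8 CPM in the saline tumors and 4.65, 6.07 and 5.03 CPM in the treated tumors. All 3 treated tumors were below every saline tumor (log2 fold change -2.07 ± 0.42 (SE), unadjusted p = 0.000618), and DESeq2 on the 6 tumors gave an adjusted p of 0.00418.

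Of 7 tested efflux pumps, which carry drugs out of cells, 2 were higher and 1 lower at p under 0.05, where 4.91% and 5.47% of all genes were. The P-glycoprotein genes and Abcg2 were highest in 1 treated tumor. Abcb1a, one of the mouse genes for P-glycoprotein, was at 0.973, 1.95 and 2.34 CPM in the saline tumors and 2.18, 68.9 and 1.46 CPM in the treated tumors. Abcb1b, the other P-glycoprotein gene, was at 2.23, 4.91 and 20.6 against 3.73, 90.8 and 3.57 CPM, and Abcg2, the breast cancer resistance protein, at 2.69, 11.7 and 8.17 against 4.17, 45.8 and 2.87 CPM. In each of these genes i.v. TLZ tumor 2 held the highest value of the 6 tumors, and the other 2 treated tumors lay within the range of the saline tumors. Without i.v. TLZ tumor 2 the log2 fold changes of Abcb1a, Abcb1b and Abcg2 went from 3.78, 1.82 and 1.22 to 0.05, -1.34 and -1.10, so the sign of Abcb1b and Abcg2 turned. Without saline tumor 3 that of Abcb1b was 3.21.

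Genes of the cell cycle were lower in the i.v. TLZ tumors as a group. All 63 tested genes of mitosis and G2/M had a log2 fold change below 0, and 43 of them had p under 0.05, where 5.47% of all genes did. Their median log2 fold change was -1.11, against -0.03 over all genes. In 18 of them all treated tumors lay below all controls, where 5.2% of all genes did. All 48 DNA replication genes were likewise below 0, 30 at p under 0.05, with a median of -0.90 and 14 without overlap. These counts depended strongly on single tumors. Without saline tumor 3, 13 mitosis genes and 8 replication genes had p under 0.05 on the lower side (4.19% of all genes in that fit, with 5.35% on the higher side), and the medians were -0.76 and -0.58. Without i.v. TLZ tumor 1 the counts were also 13 and 8, and without i.v. TLZ tumor 2 they were 21 and 12. Of all 16203 genes in each of these fits, 570 and 808 were lower at that p. The leave-one-out medians stayed below 0, at -1.53 to -0.76 for mitosis and -1.20 to -0.58 for replication.

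The mean log2 CPM of the 63 mitosis genes was 5.68, 5.02 and 6.37 in the saline tumors and 3.91, 4.59 and 5.21 in the i.v. TLZ tumors. Saline tumor 2 was the lowest of the controls and i.v. TLZ tumor 3 the highest of the treated tumors, and these 2 crossed, so the groups overlapped in the mean. In 60 of the 63 genes i.v. TLZ tumor 1 lay below every saline tumor, in 52 i.v. TLZ tumor 2 did, and in 20 i.v. TLZ tumor 3 did. The 48 replication genes gave 5.60, 5.06 and 5.95 in the saline tumors and 4.36, 4.48 and 5.07 in the i.v. TLZ tumors, with the same 2 tumors at the crossing.

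Top2a, topoisomerase II alpha, which untangles sister chromatids and is made in S and G2 phase, had the smallest p of the cell cycle genes. It was at 429, 241 and 325 CPM in the saline tumors and 84.5, 71.2 and 110.2 CPM in the treated tumors. The lowest saline tumor was above the highest treated tumor by a wide margin (log2 fold change -1.90 ± 0.30 (SE), unadjusted p = 8.31e-05, edgeR adjusted p = 0.251, DESeq2 adjusted p on the 6 tumors = 0.00767). The log2 fold change was -1.90 without saline tumor 3.

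Among the kinetochore and spindle genes, Cenpe, a kinesin of the kinetochore, was at 113, 38.5 and 143 against 15.7, 23.5 and 37.8 CPM. Tacc3, a spindle protein, was at 62.1, 68.2 and 94.05 against 26.2, 39.4 and 40.3 CPM, and Nuf2, a kinetochore subunit, at 38.9, 25.9 and 68.9 against 8.82, 11.6 and 22.5 CPM. The mitotic kinase gene Aurkb was at 27.6, 23.2 and 89.3 against 13.04, 17.7 and 22.8 CPM, and Foxm1, a transcription factor of the G2/M programme, at 47.6, 43.4 and 138 against 20.99, 34.2 and 41.7 CPM. None of these 5 overlapped between groups, but saline tumor 3 was the highest control in each, and in Aurkb and Foxm1 it was far above the others. The log2 fold changes of Aurkb and Foxm1 went from -1.39 and -1.24 to -0.50 and -0.48 without saline tumor 3, whereas Cenpe went from -1.94 to -1.54.

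Among the replication genes, Cdc6, which loads the helicase onto origins, was at 31.8, 24.1 and 28.4 CPM in the saline tumors and 12.02, 5.63 and 13.6 CPM in the treated tumors (log2 fold change -1.43 ± 0.37 (SE), unadjusted p = 0.00303). Mcm2, a subunit of that helicase, was at 93.7, 82.6 and 174 against 35.3, 54.7 and 54.5 CPM, and Rrm2, the small subunit of ribonucleotide reductase, at 80.2, 57.2 and 81.5 against 36.7, 14.9 and 32.4 CPM. Clspn, an adaptor of the replication checkpoint, was at 32.2, 26.8 and 33.3 against 8.63, 8.91 and 21.4 CPM. In all 4 the groups did not overlap, and the log2 fold changes of Cdc6, Rrm2 and Clspn without saline tumor 3 were -1.41, -1.28 and -1.18. In Mcm2 saline tumor 3 was far above the other controls. Pcna, the sliding clamp used as a marker of proliferation, was at 182, 147 and 222 against 119.8, 156 and 196 CPM with a log2 fold change of -0.23 ± 0.27 (SE).

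**Figure D1:**
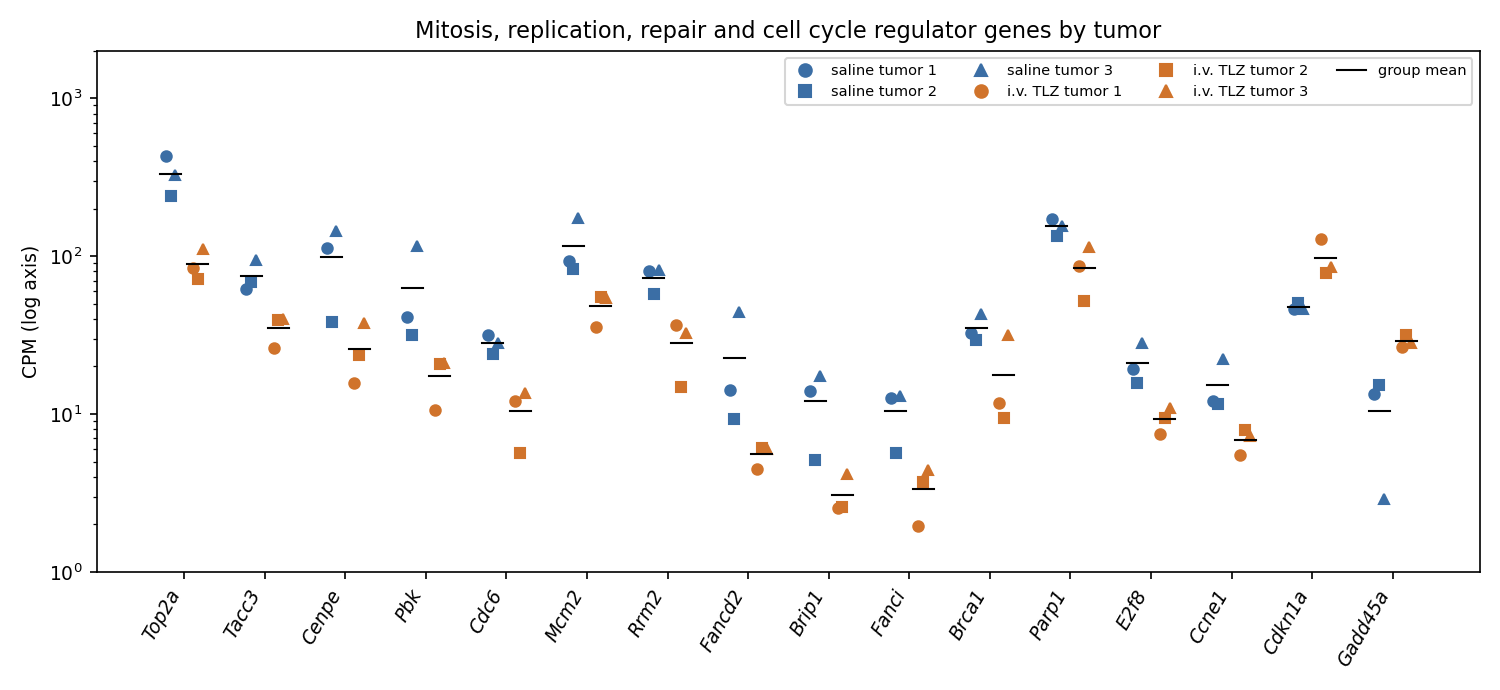
CPM on a log axis of 16 genes of mitosis, replication, repair and cell cycle control in the 3 saline tumors (blue) and the 3 i.v. TLZ tumors (orange), with 1 symbol per tumor and a bar at each group mean. The saline and treated points of Top2a, Cdc6 and Rrm2 are apart, those of Brca1 overlap, and Cdkn1a and Gadd45a are higher in all treated tumors.

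Promoter letters were counted over the tested genes of the mitosis and replication lists, whatever their fold change. The shares therefore describe the lists and are no result of the treatment. The windows from 250 bases before to 50 bases after the start site in the RefSeq table (GRCm38.p6) were searched on both strands for TTTGAA (the core of the cell cycle genes homology region, CHR), for CCAAT, and for any of 4 E2F forms, which were TTGGCGC or else TTCCCGC or else TTCGCGC or else TTGCCGC. The first of these forms can share letters with a CCAAT match on the other strand. Of the mitosis genes 52 of 63 matched the table with 54 windows, and of the replication genes 39 of 48 with 47. CHR letters were in 68.5% of the mitosis windows, 12.8% of the replication windows and 17.9% of all 32851 windows. CCAAT was in 75.9%, 59.6% and 37.4%, and the E2F letters in 20.4%, 59.6% and 9.57%. The mitosis windows were thus richer in CHR and the replication windows in E2F letters. For the p53 target list 27 of 35 genes matched, fewer than the 80% required for its shares to be used.

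The 250 bases upstream of 4 genes with small p are shown to let these letters be seen in place, 5′ to 3′ on the strand of the gene, with matches in capitals. They lie at chr11:99024190-99024439 (minus strand) for Top2a, chr3:135212313-135212562 (plus) for Cenpe, chr6:88898781-88899030 (minus) for Mcm2 and chr12:24708004-24708253 (plus) for Rrm2.
Top2a: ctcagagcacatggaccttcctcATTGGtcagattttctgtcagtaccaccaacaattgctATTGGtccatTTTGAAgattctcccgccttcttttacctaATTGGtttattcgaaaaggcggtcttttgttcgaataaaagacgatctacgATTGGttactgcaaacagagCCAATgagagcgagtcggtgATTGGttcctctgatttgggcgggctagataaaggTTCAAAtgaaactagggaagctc
Cenpe: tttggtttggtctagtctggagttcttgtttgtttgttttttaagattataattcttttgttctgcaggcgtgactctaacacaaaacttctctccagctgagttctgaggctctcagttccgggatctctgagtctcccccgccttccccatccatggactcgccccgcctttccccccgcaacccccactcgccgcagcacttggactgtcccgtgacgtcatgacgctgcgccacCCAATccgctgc
Mcm2: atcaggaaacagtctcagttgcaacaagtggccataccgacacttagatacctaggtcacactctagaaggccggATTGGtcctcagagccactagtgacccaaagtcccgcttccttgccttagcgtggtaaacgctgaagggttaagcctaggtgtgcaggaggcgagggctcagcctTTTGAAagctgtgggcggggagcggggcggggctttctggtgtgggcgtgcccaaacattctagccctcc
Rrm2: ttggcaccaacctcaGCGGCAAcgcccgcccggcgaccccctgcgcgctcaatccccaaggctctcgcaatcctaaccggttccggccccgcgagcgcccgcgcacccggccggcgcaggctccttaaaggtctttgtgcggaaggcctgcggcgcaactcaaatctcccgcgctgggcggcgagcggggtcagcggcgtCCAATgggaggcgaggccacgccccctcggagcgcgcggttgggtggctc
Top2a held 6 CCAAT and 2 CHR matches, 1 of the latter 23 bases before the start. Cenpe held 1 CCAAT match, 12 bases before the start. Mcm2 held 1 CHR and 1 CCAAT match, and Rrm2 held 1 E2F match 235 bases and 1 CCAAT match 50 bases before the start. A match is a description of letters and no measure of binding.

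Repair of the breaks that trapped PARP leaves behind runs through homologous recombination and the Fanconi anemia proteins. Of 35 tested genes of these pathways 32 had a log2 fold change below 0, 18 of them at p under 0.05 (5.47% of all genes), and 0 were higher at that p. The median was -0.99. Without saline tumor 3 the count was 7 (4.19% of all genes) and the median -0.48. Without i.v. TLZ tumors 1 and 2, each in turn, the counts were 7 and 9 (570 and 808 of all 16203 genes). Brip1, the helicase that binds BRCA1, was at 14.1, 5.10 and 17.3 against 2.52, 2.57 and 4.17 CPM, Fanci at 12.6, 5.62 and 13.1 against 1.94, 3.72 and 4.44 CPM and its partner Fancd2 at 14.2, 9.25 and 44.1 against 4.51, 6.12 and 6.01 CPM. The 3 genes did not overlap between groups, and in Fancd2 saline tumor 3 was the highest by far (log2 fold change -2.02, and -1.07 without it). Palb2, which links BRCA1 to BRCA2, was at 9.96, 9.86 and 17.7 against 5.04, 7.93 and 5.41 CPM, with saline tumor 3 well above the other controls (log2 fold change -1.03 ± 0.39 (SE), unadjusted p = 0.0241). Mre11a, a nuclease subunit that starts end resection, was at 228, 20.5 and 36.7 against 18.95, 19.5 and 22.9 CPM, so that its log2 fold change of -2.22 rested on saline tumor 1 and was -0.47 without it. Of 15 end joining genes 3 were lower at p under 0.05 (5.47% of all genes), led by Xrcc5, the Ku80 gene, at 53.6, 24.5 and 39.2 against 17.8, 11.8 and 16.9 CPM. Polq, the polymerase of microhomology end joining, was at 28.5, 9.20 and 17.5 against 3.93, 2.19 and 12.5 CPM with overlap.

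The regulators of the cell cycle went both ways. Cdkn1a, the p21 inhibitor of cyclin-dependent kinases and a target of p53, was at 46.1, 50.5 and 46.1 CPM in the saline tumors and 128, 78.3 and 85.3 CPM in the treated tumors. All 3 treated tumors were above the controls, whose values were close together (log2 fold change 1.03 ± 0.27 (SE), unadjusted p = 0.00318, edgeR adjusted p = 0.417). Gadd45a, a damage-inducible gene, was at 13.4, 15.2 and 2.89 against 26.7, 31.5 and 28.2 CPM (log2 fold change 1.46 ± 0.53 (SE), unadjusted p = 0.02, and log2 fold change 1.02 without saline tumor 3). Of 35 tested p53 targets, 2 were higher and 2 lower at p under 0.05 (4.91% and 5.47% of all genes), and the median was 0.05. Without saline tumor 3, 4 were higher and 0 lower (5.35% and 4.19% of all genes), and the median was 0.24. Averaged over the list, log2 CPM was 4.50, 4.68 and 4.70 in the saline tumors and 4.85, 4.74 and 4.92 in the i.v. TLZ tumors, and the groups did not overlap by a narrow margin. In 5 of them the lowest treated tumor exceeded the highest control (5.99% of all genes), namely Cdkn1a, Gadd45a, Plk3, Bbc3 and Aen. The 2 lower genes, Psrc1 and Perp, were so through saline tumor 3, and their log2 fold changes were -0.06 and -0.07 without it.

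Of 23 regulators of G1 and inhibitors of cyclin-dependent kinases, 3 were higher and 4 lower at p under 0.05 (4.91% and 5.47% of all genes). Without saline tumor 3, 2 were higher and 2 lower (5.35% and 4.19% of all genes), and the median went from -0.46 to -0.14. Cdkn2a, the p16 and p19ARF locus, was at 32.9, 90.7 and 56.9 against 149, 463 and 48.05 CPM and its neighbour Cdkn2b, p15, at 31.1, 64.6 and 19.2 against 135, 150.2 and 41.3 CPM. In both, i.v. TLZ tumors 1 and 2 were above every control and i.v. TLZ tumor 3 was within their range. The S phase cyclins Ccne1 and Ccne2 were at 12.02, 11.6 and 22.2 against 5.48, 7.93 and 7.25 CPM and 11.6, 9.01 and 21.01 against 4.31, 5.96 and 8.71 CPM, and the E2F family repressor E2f8 at 19.4, 15.7 and 28.03 against 7.47, 9.40 and 10.9 CPM, each without overlap. In each of these genes saline tumor 3 held the highest value. Cyclin D1 (Ccnd1) was at 290.2, 492 and 594 against 457, 721 and 296 CPM, a log2 fold change of 0.10 ± 0.41 (SE) with overlap. Xiap, an inhibitor of apoptosis, was at 148, 93.2 and 124 against 62.6, 72.3 and 77.9 CPM without overlap.

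Clustered histone genes ran the other way from the replication genes. Of 64 listed genes 39 were tested, 16 were higher and 1 lower at p under 0.05 (4.91% and 5.47% of all genes), and in 16 all treated tumors were above all controls (5.99% of all genes). The median log2 fold change was 1.40, and 1.23 to 2.25 when 1 tumor was left out. The higher count was lowest at 12, without saline tumor 2 (1216 of all 16228 genes) and without i.v. TLZ tumor 1 (626 of 16203). It was highest at 25 without saline tumor 1 (741 of 16360), and 15 without saline tumor 3 (862 of 16112). The mean log2 CPM of the 39 genes was 0.717, -0.417 and -0.182 in the saline tumors and 1.54, 0.877 and 1.43 in the i.v. TLZ tumors, with no overlap. These genes code for the core and linker proteins of the nucleosome, and most of them are made mainly in S phase.

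Hist1h2bc was at 28.4, 19.01 and 12.7 CPM in the saline tumors and 103, 66.7 and 68.98 CPM in the treated tumors (log2 fold change 1.99 ± 0.36 (SE), unadjusted p = 0.000233, edgeR adjusted p = 0.251). Hist1h4h, an H4 gene, was at 3.49, 1.38 and 1.61 against 21.2, 9.24 and 17.3 CPM (log2 fold change 2.88 ± 0.52 (SE), unadjusted p = 0.000257). The linker histone gene Hist1h1c was at 92.6, 51.2 and 40.8 against 237, 91.7 and 175 CPM and Hist1h4i at 9.44, 4.77 and 3.49 against 20.2, 14.7 and 21.1 CPM. In Hist1h1c saline tumor 1 was just above i.v. TLZ tumor 2, and in the other 3 the groups were apart. Hist3h2ba had 0, 1 and 1 counts in the saline tumors and 11, 83 and 32 in the treated tumors, a ratio of 66.2 with a 95% exact counting interval of 17.9 to 552 that covers counting error only. Its log2 fold change of 5.86 was 4.86 without i.v. TLZ tumor 2. Hist1h2ap was the 1 lower gene, at 2.57, 1.62 and 6.33 against 0.630, 0.601 and 1.57 CPM, with a log2 fold change of -1.91 that was -1.15 without saline tumor 3. Many histone genes have near-identical copies, so the share of reads given to each is uncertain, and most levels were low. Transcripts of this class largely lack a poly(A) tail, and how the RNA was selected for the libraries was not given in the sources used here. Whether that had a part in the difference was not tested.

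The gene with the smallest p of all was Col2a1 (chr15:97975602-98004695, mm10), which codes for the main collagen of cartilage. It was at 9.38, 14.2 and 21.3 CPM in the saline tumors and 191, 176 and 141 CPM in the treated tumors. The treated tumors were close together and all far above the controls (log2 fold change 3.50 ± 0.45 (SE), unadjusted p = 1.53e-05, edgeR adjusted p = 0.242, DESeq2 adjusted p on the 6 tumors = 4.72e-10), with log2 fold changes of 3.27 to 3.85 when 1 tumor was left out. The cartilage list was mixed. Of 16 tested genes, Col2a1 included, 3 were higher and 3 lower at p under 0.05 (4.91% and 5.47% of all genes). Their median of 0.13 was -0.14 without saline tumor 3. Acan, the aggregating proteoglycan, was at 0.401, 12.5 and 1.84 against 62.9, 274 and 5.36 CPM, high in i.v. TLZ tumors 1 and 2 (log2 fold change 4.53 ± 1.38 (SE), unadjusted p = 0.00826, DESeq2 adjusted p on the 6 tumors = 0.0229), and its log2 fold change was 2.79 without i.v. TLZ tumor 2. Snorc, a membrane proteoglycan of cartilage, was at 8.41, 104 and 450.3 against 5.14, 15.5 and 15.7 CPM, high in saline tumors 2 and 3, and its log2 fold change of -3.96 was -2.21 without saline tumor 3.

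Matrix genes differed among the treated tumors. Of 32 fibroblast and fibrillar matrix genes, 8 were higher and 0 lower at p under 0.05 (4.91% and 5.47% of all genes), and the median was 0.74. In 7 all treated tumors lay above all controls (5.99% of all genes). Without i.v. TLZ tumor 1 the median was 0.03. The mean log2 CPM of the list was 5.76, 5.71 and 5.79 in the saline tumors and 7.13, 5.60 and 5.96 in the i.v. TLZ tumors, so that i.v. TLZ tumor 1 stood above the other 5 and i.v. TLZ tumor 2 lay below every control. Col6a1, a collagen of the pericellular matrix, was at 157, 174 and 173 CPM in the saline tumors and 579, 405 and 347 CPM in the treated tumors (log2 fold change 1.40 ± 0.32 (SE), unadjusted p = 0.00143). Col5a1 was at 103, 75.96 and 89.3 against 274, 165 and 155 CPM, and Fbln2, an elastic fibre protein, at 194, 385 and 395 against 918, 1941 and 463 CPM. The fibroblast markers Dcn, Col1a1 and Pdgfra were at 18.5, 21.02 and 16.1 against 49.7, 30.3 and 127 CPM, 1003, 682 and 494 against 3049, 446 and 1276 CPM and 22.8, 17.01 and 15.2 against 44.3, 31.2 and 14.6 CPM, of which the first did not overlap. In bulk tumors, more cells of a type and more RNA per cell cannot be told apart, and the same holds for fewer cells and less RNA.

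Matrix metalloproteinases were among the genes DESeq2 called. Mmp3, stromelysin 1, was at 6.75, 4.10 and 0.780 CPM in the saline tumors and 100.003, 78.01 and 16.5 CPM in the treated tumors and Mmp12, macrophage elastase, at 12.9, 18.3 and 3.17 against 115, 54.9 and 261 CPM. Both were above the controls in all 3 treated tumors, with DESeq2 adjusted p of 0.000653 and 0.000817 on the 6 tumors and unadjusted edgeR p of 0.00243 and 0.00143. Mmp13, collagenase 3, was at 11.1, 25.4 and 3.90 against 379.9, 22.9 and 74.99 CPM, where i.v. TLZ tumor 2 was within the range of the controls. The 3 genes lie side by side on chromosome 9. Prrx1, a homeobox factor of mesenchyme, was at 13.4, 13.01 and 11.6 CPM in the saline tumors and 29.1, 43.8 and 50.9 CPM in the treated tumors (log2 fold change 1.70 ± 0.31 (SE), unadjusted p = 0.000237). Of the 15 tested regulators and markers of mesenchymal change 2 were higher and 1 lower at p under 0.05 (4.91% and 5.47% of all genes), with a median of 0.27. Snai2 was at 0.916, 1.19 and 67.9 against 1.84, 0.984 and 2.22 CPM, high in saline tumor 3, and its log2 fold change of -3.79 was 0.68 without it.

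Other genes with the smallest p on the higher side had various roles. Whrn, the scaffold protein whirlin, was at 7.44, 8.91 and 2.71 CPM in the saline tumors and 39.99, 67.1 and 53.5 CPM in the treated tumors (log2 fold change 3.07 ± 0.46 (SE), unadjusted p = 5.59e-05). Slc22a4, a transporter of ergothioneine and carnitine, was at 1.37, 1.24 and 1.88 against 16.3, 8.42 and 7.25 CPM, and Tspan17, a tetraspanin, at 20.6, 21.4 and 9.18 against 77.9, 82.00 and 58.5 CPM. Ddit3, the stress transcription factor CHOP, was at 18.2, 17.97 and 10.4 against 44.7, 44.9 and 44.9 CPM, close to one level in the 3 treated tumors (log2 fold change 1.53 ± 0.29 (SE), unadjusted p = 0.000373). Card19 was at 20.3, 34.1 and 19.8 against 85.4, 104 and 61.1 CPM, the zinc transporter gene Slc39a13 at 29.01, 30.3 and 16.7 against 114, 94.1 and 55.3 CPM and Baiap2l1 at 7.27, 6.86 and 4.08 against 17.6, 22.1 and 19.3 CPM. In each of these 7 genes the lowest treated tumor was above the highest control, which the rule that chose them required. Low genes were also on this side, Msc (musculin) at 0.458, 0.810 and 0.413 against 2.23, 7.76 and 5.36 CPM and Hoxc9 at 0.343, 0.763 and 0.688 against 6.16, 11.4 and 1.73 CPM. By size of change the list added Prl2c2, a proliferin gene with near-identical copies, at 0.744, 2.57 and 0 against 65.4, 9.62 and 42.3 CPM, Cyp21a1, the steroid 21-hydroxylase gene, at 1.03, 0.286 and 0 against 12.2, 8.47 and 5.41 CPM and Mettl7b at 0, 0.238 and 0.0459 against 3.34, 0.437 and 3.25 CPM. Slc5a5, the iodide transporter gene, at 1.49, 1.14 and 1.15 against 60.7, 2.57 and 1.89 CPM, Cilp2 at 0.687, 0.334 and 0.780 against 28.7, 3.12 and 3.14 CPM, Gm10800 at 0.687, 0.143 and 0.321 against 19.5, 1.75 and 1.41 CPM and Foxd1 at 0, 0.0477 and 0 against 4.75, 0.328 and 0.595 CPM were carried by i.v. TLZ tumor 1, and Sult4a1 at 0.458, 0.429 and 0 against 0.485, 1.09 and 30.03 CPM by i.v. TLZ tumor 3. Npy, neuropeptide Y, had 0 counts in the saline tumors and 50, 276 and 4 in the treated tumors, at least 119-fold higher against a floor of 3 counts over the group and at least 26.6-fold without i.v. TLZ tumor 2. Kcnt1, a potassium channel gene, had 0 counts in the saline tumors and 8, 89 and 17 in the treated tumors, at least 41.4-fold higher and at least 13.2-fold without that tumor. Neither Npy nor Kcnt1 passed the count filter of edgeR.

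On the lower side, outside the muscle and cell cycle genes, Sorbs2, an adaptor of actin filaments, was at 217, 154 and 229 CPM in the saline tumors and 38.9, 62.3 and 69.04 CPM in the treated tumors (log2 fold change -1.82 ± 0.30 (SE), unadjusted p = 0.000129, DESeq2 adjusted p on the 6 tumors = 0.0152). Adamts9, a matrix protease, was at 121, 74.01 and 103 against 17.9, 32.7 and 31.7 CPM and Chst11, a chondroitin sulfotransferase, at 172, 92.1 and 119 against 52.4, 50.6 and 36.3 CPM. Tnfrsf19, the TROY receptor and a Wnt target, was at 17.6, 15.7 and 31.7 against 3.83, 6.18 and 1.41 CPM (log2 fold change -2.51 ± 0.59 (SE), unadjusted p = 0.00174). In these 4 genes every control was above every treated tumor, which the rule that chose Sorbs2, Adamts9 and Chst11 required.

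Luminal progenitors are the mammary cells from which tumors of this genotype are thought to arise. Of 10 tested genes of these cells 4 were lower and 0 higher at p under 0.05 (5.47% and 4.91% of all genes), the same 4 did not overlap (5.2% of all genes lay below), and the median was -1.11 (-1.24 to -0.90 when 1 tumor was left out). The mean log2 CPM of the list was 7.02, 6.22 and 6.21 in the saline tumors and 5.52, 5.34 and 5.95 in the i.v. TLZ tumors, with no overlap. Kit, the receptor of stem cell factor, was at 315, 291 and 416 CPM in the saline tumors and 134, 122 and 81.5 CPM in the treated tumors (log2 fold change -1.60 ± 0.28 (SE), unadjusted p = 0.000202, edgeR adjusted p = 0.251, DESeq2 adjusted p on the 6 tumors = 0.0413). Its ligand gene Kitl was at 61.7, 42.4 and 75.7 against 17.01, 25.4 and 33.5 CPM, also without overlap. Elf5, the transcription factor of alveolar luminal cells, was at 104, 67.2 and 66.8 against 35.8, 31.1 and 40.7 CPM (log2 fold change -1.14 ± 0.28 (SE), unadjusted p = 0.00236). Bcl11a was at 20.2, 9.96 and 128 against 5.96, 6.40 and 6.55 CPM, high in saline tumor 3, and its log2 fold change was -3.06 with and -1.24 without that tumor. The progenitor markers Cd14, Sox10, Cd24a and Lbp overlapped between the groups.

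Milk protein genes were uneven among the tumors. The casein gene Csn1s1 was at 1659, 1176 and 1.009 against 87.1, 175 and 43.6 CPM, and Csn2 at 307, 10.6 and 0.459 against 37.8, 9.79 and 22.2 CPM. All 10 tested had a log2 fold change below 0 and 2 had p under 0.05, but the groups overlapped in every one, and the median of -1.61 ran from -2.53 to 0.19 when 1 tumor was left out. The general epithelial list of keratins and junction genes had 5 lower and 1 higher of 27 at p under 0.05 (5.47% and 4.91% of all genes) with a median of -0.21. Ehf, an epithelial ETS factor, was at 320.1, 327 and 265 against 157, 119 and 201 CPM and Cldn1, a tight junction claudin, at 68.7, 38.9 and 68.4 against 29.3, 8.75 and 23.9 CPM, both without overlap. Itgb4, the hemidesmosome integrin, was higher at 693, 671 and 763 against 987, 2254 and 1323 CPM. Other basal genes except Krt15 overlapped, with Krt14 at 1228, 752 and 802 against 2584, 122 and 842 CPM. Krt15 was at 4.23, 4.19 and 152 against 1.99, 1.09 and 0.703 CPM, lower in every treated tumor. It was by far the highest in saline tumor 3, and its log2 fold change of -5.39 was -1.72 without that tumor. Among hormone-sensing genes Wnt4 was at 16.3, 22.2 and 14.2 against 74.3, 94.6 and 19.8 CPM and Greb1 at 0.801, 0.143 and 0.138 against 2.08, 3.06 and 0.920 CPM.

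**Figure D2:**
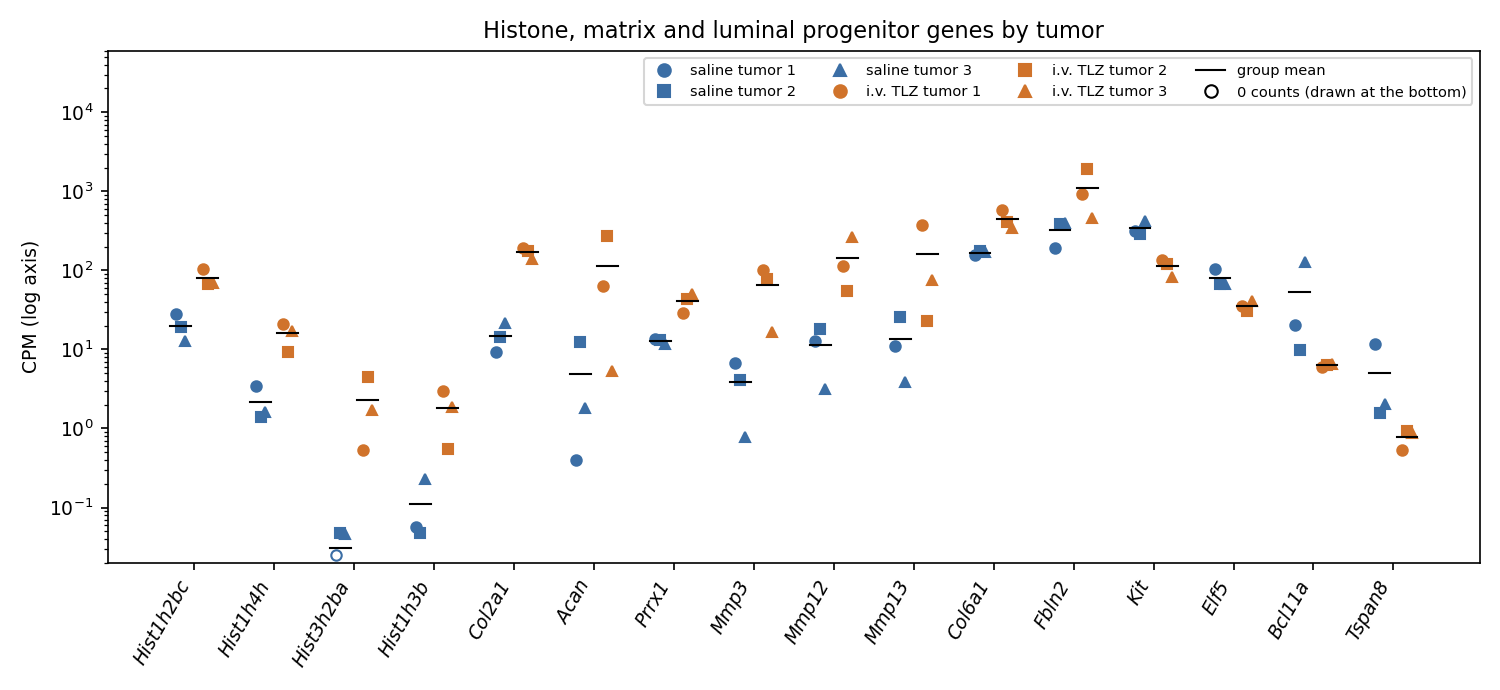
CPM on a log axis of 4 histone, 8 matrix or mesenchymal and 4 luminal progenitor genes in each saline tumor (blue) and each i.v. TLZ tumor (orange), with a bar at each group mean and open symbols at the bottom for 0 counts. Col2a1 is at 9.38 to 21.3 CPM in the saline tumors and 141 to 191 CPM in the treated tumors, and Kit, Elf5, Bcl11a and Tspan8 lie lower in all treated tumors.

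Skeletal muscle genes were 16 of the 45 genes that DESeq2 called lower on the 6 tumors. Of 36 listed genes 27 were tested, all 27 had a log2 fold change below 0, 19 had p under 0.05 (5.47% of all genes), and in 14 all treated tumors were below all controls (5.2% of all genes). The median was -2.56, and -1.60 without saline tumor 3, where 14 had p under 0.05 (4.19% of all genes in that fit). Summed over the list, the level was 73.9, 363 and 1247 CPM in the saline tumors and 73.7, 42.2 and 48.5 CPM in the i.v. TLZ tumors. In 26 of the 27 genes saline tumor 3 held the highest, saline tumor 2 the middle and saline tumor 1 the lowest value of the controls, so the controls differed among themselves as a set.

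Myh4, the fast IIb myosin heavy chain, was at 6.01, 45.9 and 213 CPM in the saline tumors and 0.0485, 0.0547 and 0.216 CPM in the treated tumors (log2 fold change -9.63 ± 1.47 (SE), unadjusted p = 6.28e-05, DESeq2 adjusted p on the 6 tumors = 1.3e-13), and its log2 fold change was -7.86 without saline tumor 3. Acta1, skeletal actin, was at 5.21, 68.7 and 231 against 0.436, 0.0547 and 0.433 CPM and Ckm, muscle creatine kinase, at 1.54, 10.3 and 28.7 against 0, 0.219 and 0.108 CPM. The treated tumors held 6 counts of Myh4 in all, and the saline tumors 5709. For Myl1, a myosin light chain, the treated tumors held 1 count and the saline tumors 53, 176 and 796, a ratio of 976 with a 95% exact counting interval of 175 to 38589. Eef1a2, an elongation factor found in muscle and neurons, had 1, 79 and 179 counts in the saline tumors and 0, 3 and 0 in the treated tumors. Without saline tumor 3 the log2 fold changes of Myl1, Acta1, Ckm and Car3 went from -9.40, -8.33, -6.91 and -5.37 to -7.91, -6.87, -5.71 and -3.42. All 4 defining muscle markers, Acta1, Ckm, Tnnt3 and Atp2a1, were at 1.89 CPM or less in the treated tumors. The lowest control, saline tumor 1, was still above every treated tumor for all 4. Car3, which is high in muscle and fat, was at 2.52, 8.72 and 53.4 against 0.727, 0.711 and 0.108 CPM. None of the 4 fat markers passed the count filter. Of 15 tested adipocyte genes 2 were lower at p under 0.05 (5.47% of all genes), Car3 being one of them. Their median log2 fold change of -0.48 was 0.13 without saline tumor 3. Red cell genes were at 9.61, 10.5 and 24.3 against 7.51, 4.87 and 1.51 CPM for Hba-a1. How much of each dissected tumor was adjacent tissue was not tested.

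**Figure D3:**
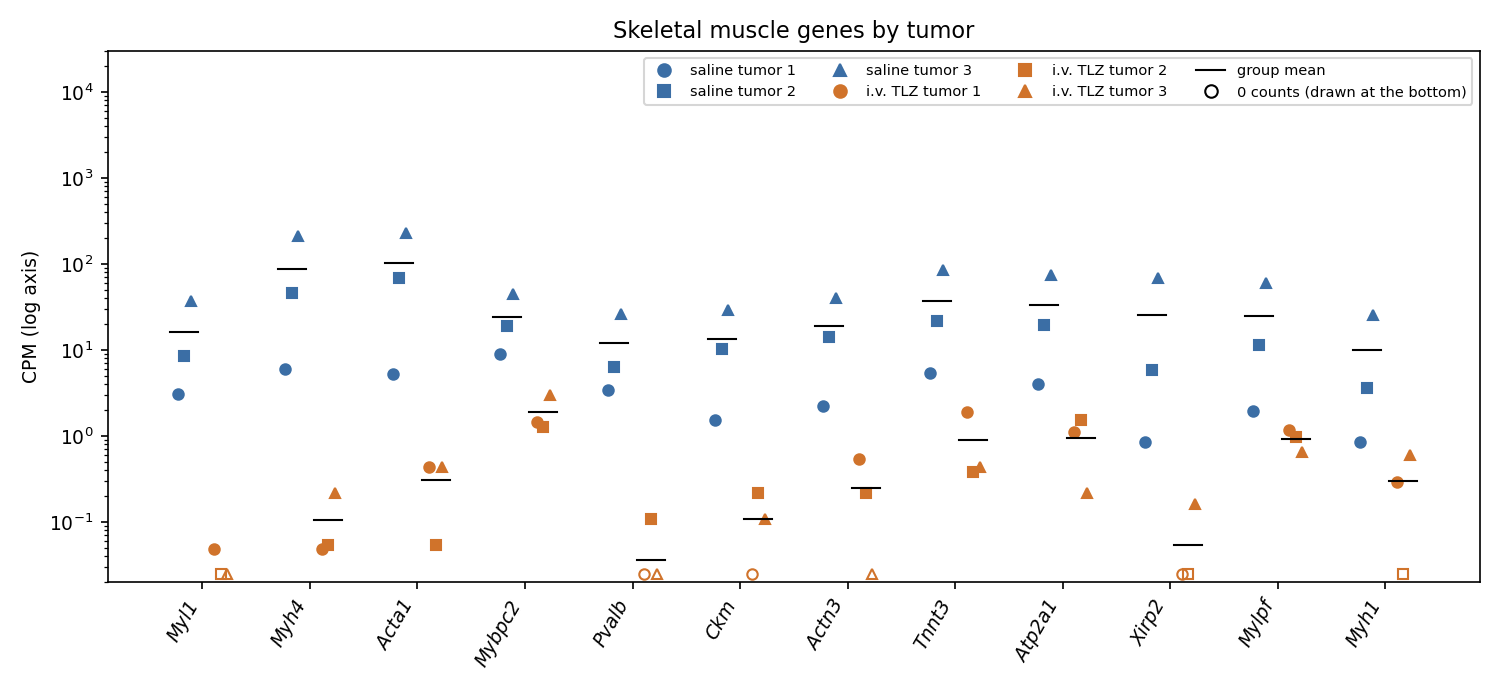
CPM on a log axis of the 12 skeletal muscle genes with the smallest p in each saline tumor (blue) and each i.v. TLZ tumor (orange), with a bar at each group mean and open symbols at the bottom for 0 counts. Saline tumor 3 (blue triangles) is the highest for every gene, and the treated tumors hold 2.98 CPM or less.

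Immune genes overlapped for the most part. Macrophage markers Csf1r, C1qa and Adgre1 were at 116, 328 and 81.7 against 370.3, 137 and 261 CPM, 103, 499.8 and 111 against 443, 218 and 335 CPM and 24.3, 50.7 and 16.2 against 39.2, 15.7 and 48.6 CPM. Of 23 macrophage genes 1 was higher and 1 lower at p under 0.05, where 4.91% and 5.47% of all genes were. Of 20 T and NK cell genes 1 was higher and 0 lower, and of 10 neutrophil genes 0 either way. These counts depended on saline tumor 2. Without it, 9 macrophage genes were higher and 1 lower at that p (1216 and 1389 of all 16228 genes). Foxp3, the factor of regulatory T cells, was at 0.229, 0.143 and 0.0918 against 0.727, 0.273 and 0.271 CPM, at very low counts. The 20 MHC class I genes had no p under 0.05. In i.v. TLZ tumor 2 their mean log2 CPM was the lowest of the 6 tumors, with B2m at 1059, 938 and 435 against 1933, 246 and 1435 CPM and H2-D1 at 2162, 2074 and 657 against 3697.9, 679 and 2863 CPM. B and plasma cell genes had a median of 2.96 over 11 tested genes, which went to -0.38 without i.v. TLZ tumor 1. In that tumor Igha was at 114 CPM and in the other 5 at 0.459 to 5.19 CPM. Of 35 interferon-stimulated genes 1 was higher and 1 lower, and Ifit1 was at 1.03, 1.81 and 1.79 against 4.56, 2.62 and 7.30 CPM.

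Chemokine genes guide immune cells. Of 24 tested, 7 were higher and 0 lower at p under 0.05 (4.91% and 5.47% of all genes), and their mean level overlapped between the groups, with a median log2 fold change of 1.03 (0.27 to 1.61 when 1 tumor was left out). Ccl17 and Ccl22, the ligands of CCR4, were at 0.172, 0.905 and 0.413 against 2.04, 3.83 and 3.08 CPM and 0.172, 0.334 and 0.505 against 1.65, 1.59 and 2.60 CPM, low but without overlap. Cxcl12, the ligand of CXCR4, was at 5.49, 2.67 and 6.47 CPM in the saline tumors and 23.1, 22.8 and 5.68 CPM in the treated tumors, high in i.v. TLZ tumors 1 and 2 and among the controls in tumor 3 (log2 fold change 1.82 ± 0.55 (SE), unadjusted p = 0.00797). Cx3cl1 was at 104, 65.6 and 29.7 against 210.4, 307 and 96.8 CPM. Complement and coagulation genes had 4 higher and 0 lower of 20, led by C1s1 at 6.47, 8.53 and 4.50 against 44.8, 12.7 and 12.4 CPM, with a median of 1.05. In both lists i.v. TLZ tumor 1 had the highest mean log2 CPM and saline tumor 3 the lowest, 1.85, 3.22 and 1.04 against 4.10, 2.48 and 3.26 for chemokines and 4.06, 4.71 and 2.998 against 5.70, 4.23 and 4.74 for complement.

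Growth factor genes varied by member. Of 30 receptor tyrosine kinases and ligands 5 were higher and 2 lower at p under 0.05 (4.91% and 5.47% of all genes), with a median of 0.02. Pdgfb, the platelet-derived growth factor B chain, was at 107, 165 and 91.8 CPM in the saline tumors and 318, 238 and 285 CPM in the treated tumors (log2 fold change 1.21 ± 0.32 (SE), unadjusted p = 0.00395). Hbegf, a ligand of EGFR, was at 34.9, 93.8 and 22.9 against 108, 325 and 135 CPM and Ret, the GDNF family receptor, at 0.801, 1.14 and 0.642 against 3.05, 7.71 and 3.30 CPM, both without overlap. Fgf18 had 1 count over the saline tumors and 72 over the treated tumors. Ngfr, the low affinity neurotrophin receptor, was at 1.14, 1.72 and 1.65 against 30.01, 6.18 and 3.73 CPM (log2 fold change 3.14 ± 0.88 (SE), unadjusted p = 0.00526), with i.v. TLZ tumor 1 far above the others. Of 37 Wnt pathway genes 4 were higher and 1 lower, and Wnt9a was at 4.18, 5.10 and 1.84 against 19.7, 14.4 and 7.47 CPM.

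Antioxidant genes went both ways. Sod3, the extracellular superoxide dismutase, was at 9.16, 10.7 and 0.642 CPM in the saline tumors and 91.04, 127 and 45.8 CPM in the treated tumors (log2 fold change 3.69 ± 0.84 (SE), unadjusted p = 0.0013, DESeq2 adjusted p on the 6 tumors = 0.00442), and its log2 fold change was 3.16 without saline tumor 3. Srxn1, sulfiredoxin, was at 32.7, 41.03 and 27.8 against 74.1, 55.5 and 49.8 CPM and Sod2, the mitochondrial dismutase, at 46.3, 62.7 and 34.3 against 99.3, 63.1 and 83.7 CPM. Prdx3, a mitochondrial peroxiredoxin, was lower at 80.8, 43.8 and 49.7 against 32.6, 27.8 and 32.6 CPM. Of 23 antioxidant genes 3 were higher and 1 lower at p under 0.05 (4.91% and 5.47% of all genes), with a median of 0.27.

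Of 26 glycolysis and hypoxia genes 4 were higher and 0 lower at p under 0.05 (4.91% and 5.47% of all genes), and in 8 all treated tumors were above all controls (5.99% of all genes). P4ha2, a collagen prolyl hydroxylase induced by hypoxia, was at 44.5, 21.7 and 11.2 CPM in the saline tumors and 165, 86.2 and 85.4 CPM in the treated tumors (log2 fold change 2.12 ± 0.51 (SE), unadjusted p = 0.00194). Pfkp, the platelet phosphofructokinase, was at 190.5, 88.02 and 161 against 314, 319 and 315 CPM, and Vegfa at 363, 296 and 83.2 against 660.0, 811 and 377 CPM. The mean log2 CPM of the list was 7.29, 7.02 and 6.32 in the saline tumors and 7.59, 7.46 and 7.38 in the i.v. TLZ tumors, with saline tumor 3 well below the others, and its median of 0.34 was 0.35 without that tumor. Hspb1, a small heat shock protein, was at 188, 176 and 139 against 505, 260.4 and 358 CPM and Fosl1 at 15.7, 27.9 and 2.43 against 37.5, 38.9 and 67.7 CPM, both without overlap. Cytosolic ribosomal protein genes had a median of -0.24, and 0.01 without saline tumor 3.

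**Figure D4:**
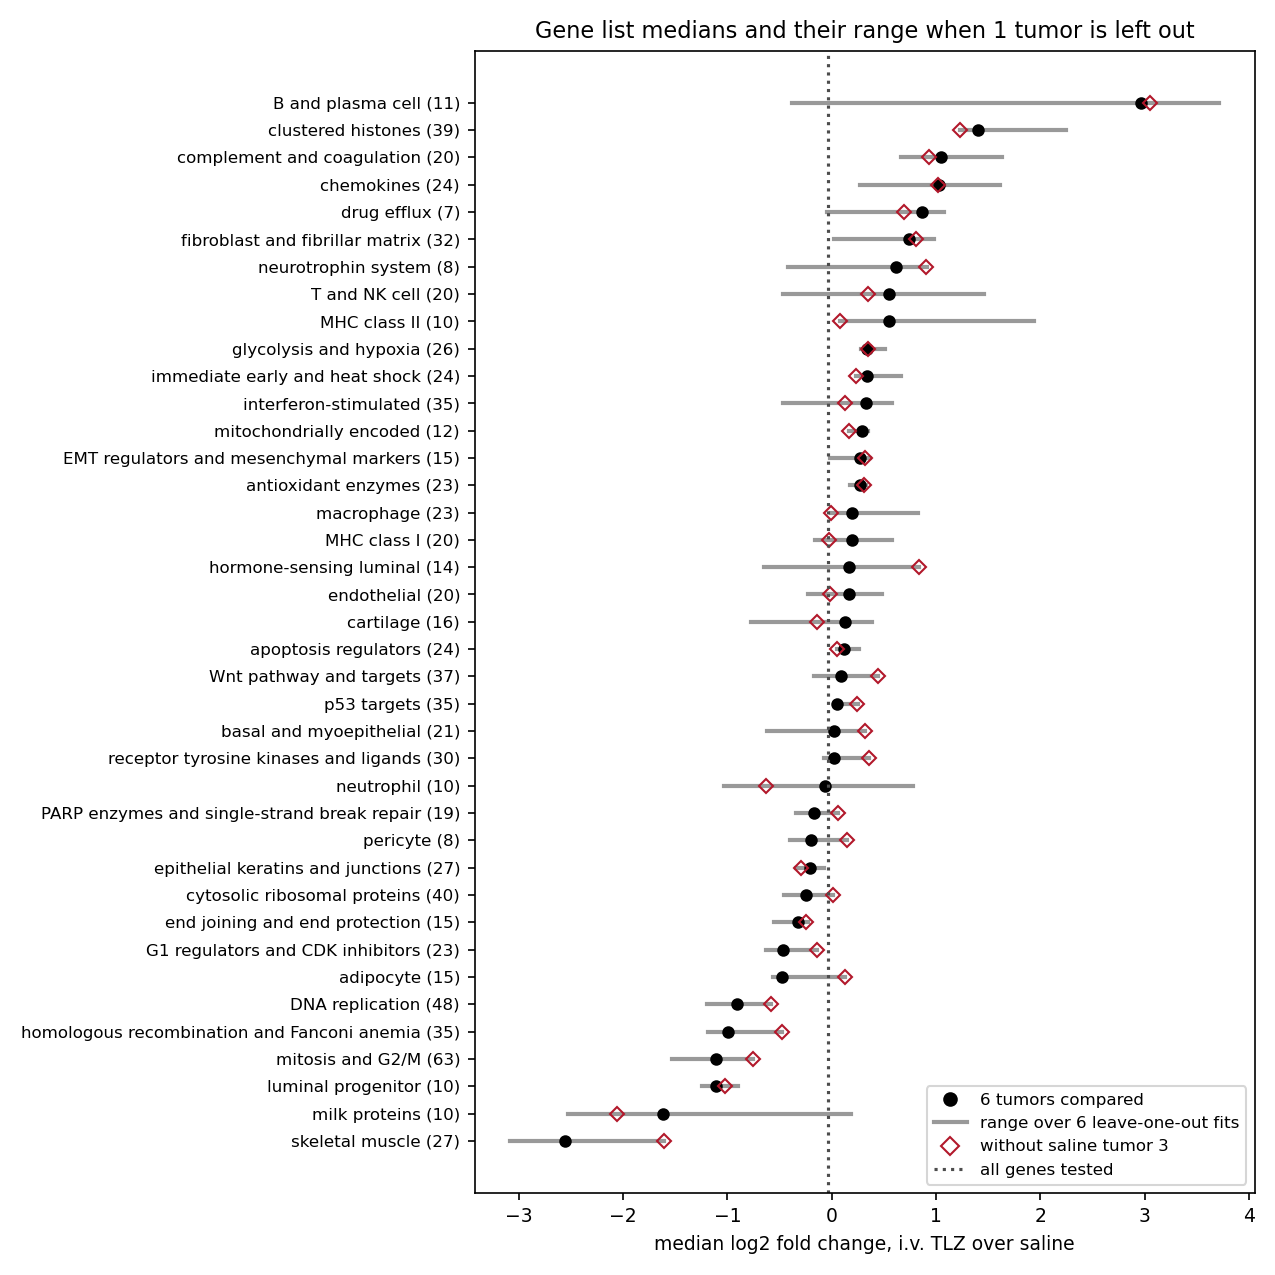
Median log2 fold change (i.v. TLZ over saline) of the tested genes of each of 39 lists (number of genes in brackets), with the range over the 6 fits that leave out 1 tumor (grey) and the value without saline tumor 3 (red diamonds); the dotted line is the median of all tested genes. Muscle, mitosis, replication, recombination and luminal progenitor lists stay below 0 and the histone list above 0 in every fit. Other lists also keep 1 sign, among them complement (0.66 to 1.63) and G1 regulators (-0.63 to -0.14).

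Some runs of neighbouring genes were very high in 1 or several of the tumors, and these were chosen for description after their values were seen. DNA copy number was not analysed here. Met, the receptor of hepatocyte growth factor (chr6:17463800-17573980, mm10), was at 14422, 9018 and 86.5 CPM in the saline tumors and 5219, 86.6 and 2671 CPM in the treated tumors. Its neighbour Cav2 was at 5729, 3789 and 128 against 2772, 122 and 1451 CPM, Capza2 at 150.4, 7717 and 189.8 against 7011, 176 and 2778 CPM and Tes at 99.05, 9313 and 96.5 against 1216, 146 and 3373 CPM. The 4 tumors with high Met were saline tumors 1 and 2 and i.v. TLZ tumors 1 and 3, so the groups overlapped, and among the 13 tested genes of these 3.14 Mb the set that was high differed from tumor to tumor. Lsm8, at the end of this stretch, was at 21.4, 54.9 and 86.9 against 1616, 33.1 and 580.4 CPM and was called higher by DESeq2 on the 6 tumors (adjusted p = 0.0222) although i.v. TLZ tumor 2 was within the range of the controls.

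On chromosome 9, 28 tested protein-coding genes over 5.90 Mb around Yap1, the effector of the Hippo pathway, had i.v. TLZ tumor 2 as the highest of the 6 tumors in 23 cases, and in 18 its level was more than 5 times that of the next tumor. Yap1 itself was at 253, 86.9 and 168 against 277, 1294 and 187 CPM, the apoptosis inhibitor gene Birc2 at 40.1, 22.1 and 28.4 against 39.9, 252 and 66.98 CPM and Casp12 at 35.9, 17.5 and 8.81 against 28.8, 459 and 39.4 CPM. The metalloproteinase genes described above lie within this stretch, and for Mmp12 and Mmp13 i.v. TLZ tumor 2 was the lowest of the treated tumors. On chromosome 6, 5 genes from Mios to Ica1 were more than 5 times higher in saline tumor 1 than in any of the other 5 tumors. The replication gene Rpa3 is one of them, at 993, 38.8 and 46.4 against 38.4, 24.3 and 8.22 CPM, and its log2 fold change of -3.92 was -0.84 without saline tumor 1.

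**Figure D5:**
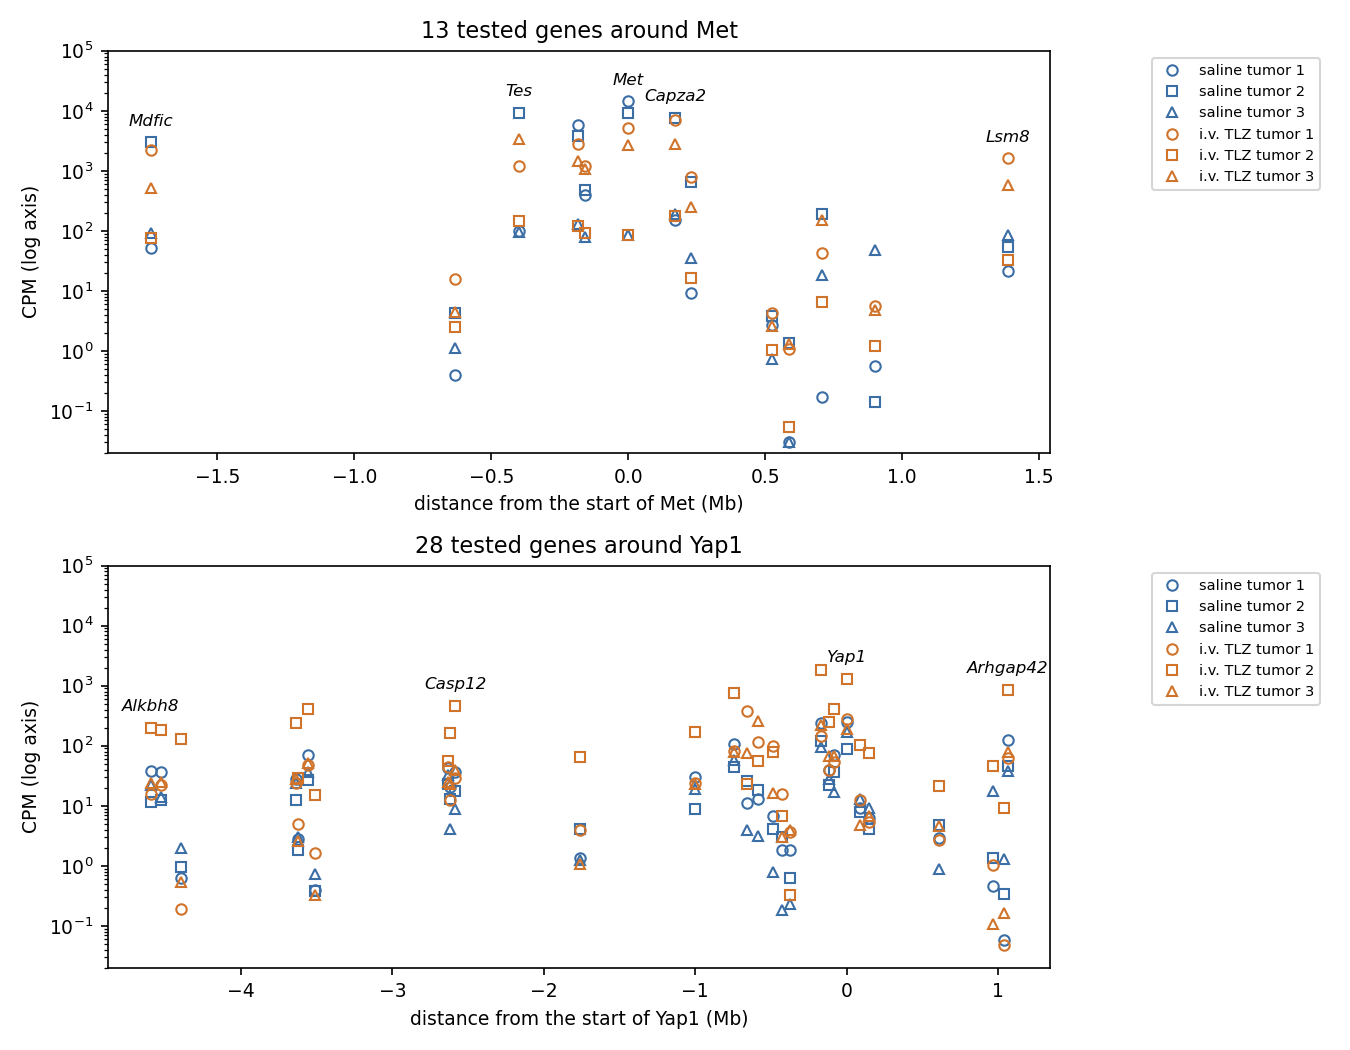
CPM on a log axis of the tested protein-coding genes around Met (upper) and Yap1 (lower) against the distance of each gene from the named gene in Mb, for the 3 saline tumors (blue) and the 3 i.v. TLZ tumors (orange). Around Met 4 of the 6 tumors are high at Met itself, and around Yap1 i.v. TLZ tumor 2 (orange squares) is the highest for 23 of 28 genes.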

How the data were processed

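RNA of mammary tumors was sequenced by the authors, who deposited whole-number read counts per gene for 9 tumors in 1 table (counts, not normalized). The submitters' processing notes name TopHat2, the mm10 build and DESeq2. The counting program, annotation, strand setting and library selection were not given in the sources used here, so overlapping and antisense genes cannot be told apart. Gene names came from GENCODE M21 by identifier (34490 of 35275). Groups were taken from the labels, 3 tumors each.

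Counts were scaled by TMM and tested with edgeR 4.0.16 (quasi-likelihood, contrast i.v. TLZ minus saline, filterByExpr with a minimum of 10 counts and 15 in all, Benjamini-Hochberg). The spread was estimated over all 9 tumors together. DESeq2 1.42.0, limma 3.58.1, other scalings, other filters and leaving out each tumor were alternatives. The edgeR p-values set each difference against a spread between tumors that was estimated partly from tumors outside this comparison. Standard errors were derived from the test statistic. Total counts were 17538380 to 21194980, and counts limit the precision of low genes.

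Named genes were the 15 per direction with the smallest p among protein-coding genes whose groups did not overlap, the 10 per direction with the largest change among genes with p under 0.05, no overlap and at least 1 CPM in the higher group, up to 4 per list with the smallest p, drug target, genotype and efflux genes with Slfn9, up to 10 genes per direction called by DESeq2 on the 6 tumors, defining markers and genes named by the study. For the 15 and the 10 per direction, lack of overlap was a condition of the choice and is no further result. Any other gene shown was chosen after its values were seen. The mean log2 CPM used a prior count of 2. The comparison, the 39 lists and the 12 marker sets were chosen with earlier results of these data known. edgeR and DESeq2 were tested on simulated data. Promoter windows were from RefSeq (GRCm38.p6).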

Additional observations from a re-analysis of the deposited data

How the results depend on the processing

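No paired analysis was possible because the labels number no replicates, and numbers set by accession order pair nothing. edgeR called 0 genes at an adjusted p under 0.05 with TMM, RLE or upper quartile scaling, robust dispersion, at least 10 counts in each tumor, only the 6 tumors, or any 1 tumor left out, as did limma-voom, and 777 and 866 genes had an unadjusted p under 0.05 on the higher and lower side. With no filter on low counts edgeR called 2 higher (Col2a1, Whrn) and 3 lower (Myh4, Myl1, Acta1). DESeq2 called 47 higher and 45 lower on the 6 tumors and 100 higher and 94 lower on all 9, with 85 genes shared. At an unadjusted p under 0.05, edgeR on the 6 tumors gave 443 higher and 483 lower genes, and leaving out 1 tumor gave 626 to 1216 higher and 570 to 1389 lower, the most without saline tumor 2. The median of all genes was -0.03 with TMM and 0.02 with upper quartile scaling. Of 624 alternative values of the list medians 590 moved by less than the spread between tumors and 34 by more, 27 of them on leaving out 1 tumor. Leave-one-out medians ran from -0.63 to -0.14 for G1 regulators, 0.075 to 0.25 for p53 targets, -1.18 to -0.48 for recombination, -0.55 to -0.22 for end joining, -0.34 to 0.065 for PARP enzymes, -0.046 to 1.08 for drug efflux, 1.23 to 2.25 for histones, -0.65 to 0.84 for hormone-sensing genes, -0.011 to 0.37 for EMT regulators, 0.025 to 0.98 for fibroblast matrix and -0.77 to 0.39 for cartilage. They ran from -0.40 to 0.15 for pericyte, -0.57 to 0.13 for adipocyte, -0.46 to 1.46 for T and NK cell, -0.38 to 3.72 for B and plasma cell, 0.078 to 1.94 for MHC class II, -0.47 to 0.58 for interferon-stimulated, -0.41 to 0.92 for neurotrophin and -0.071 to 0.35 for receptor tyrosine kinase genes. With limma-voom the p53 target and B cell medians were 0.17 and 1.32, and from differences of mean log2 CPM 0.16 and 1.25. The receptor tyrosine kinase median was -0.27 with edgeR on the 6 tumors and -0.46 with at least 10 counts in each, which also gave 0.31 for adipocyte genes. The cause of these shifts was not tested. Of 167 named genes 150 did not change sign in any alternative. The other 17 gave 43 values of the other sign, 29 of them on leaving out 1 tumor, where the values ran from -1.34 to 3.21 for Abcb1b, -1.10 to 1.75 for Abcg2, -0.14 to 0.76 for Adgre1, -0.29 to 0.38 for Ccnd1, -0.26 to 0.62 for Cdh1, -2.76 to 2.06 for Csn2, -0.94 to 0.88 for Krt14 and -0.37 to 0.83 for Krt18, and from -6.97 to 2.79 for Krt5, -0.25 to 0.61 for Krt8, -0.67 to 1.06 for Lbp, -0.34 to 0.26 for Parp2, -0.77 to 0.027 for Pecam1, -4.35 to 0.68 for Snai2, -0.21 to 0.25 for Trp53, -2.23 to 4.01 for Tes and -0.86 to 4.29 for Capza2. With limma-voom the sign differed at 0.15 for Cdh1, 0.97 for Csn2, -0.50 for Krt14, 0.11 for Krt8, 0.075 for Lbp, 0.026 for Trp53 and 0.93 for Tes. With upper quartile scaling the sign differed at 0.085 for Cdh1, 0.071 for Krt8 and 0.037 for Trp53. With at least 10 counts in each tumor the sign differed at 0.025 for Cdh1, 0.0099 for Krt8 and 0.012 for Trp53. With edgeR on the 6 tumors the sign differed at 0.0045 for Cdh1. The bounds of Npy and Kcnt1 without i.v. TLZ tumor 2 were an alternative chosen after seeing the data. At 3 tumors a side and a coefficient of variation near 50%, a gene that missed the threshold is not shown to be without a difference.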

Other observations

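With all tumors kept, further gene groups held few genes that differed between i.v. TLZ and saline tumors. Of 24 apoptosis regulators 1 was higher and 3 lower at an unadjusted edgeR p under 0.05 (4.91% and 5.47% of all genes). Bcl2l1, the gene of the survival factor BCL-XL, was at 120.3, 115 and 50.3 CPM in the saline tumors and 208, 165 and 157 CPM in the treated tumors. Its groups did not overlap. Of 20 endothelial genes 0 were higher and 1 was lower, with Pecam1 at 33.2, 40.6 and 18.7 CPM in the saline tumors and 43.4, 18.1 and 18.02 CPM in the treated tumors. Of 8 pericyte genes 1 was higher, Ndufa4l2 at 4.23, 7.82 and 5.83 CPM in the saline tumors and 16.00, 8.42 and 14.01 CPM in the treated tumors, and 1 lower, Abcc9 at 22.3, 24.7 and 19.2 CPM in the saline tumors and 14.3, 14.9 and 10.8 CPM in the treated tumors. The drug exporter Abcc3 was at 28.8, 30.1 and 19.04 CPM in the saline tumors and 55.9, 52.8 and 33.2 CPM in the treated tumors, above the controls in all 3 treated tumors. MHC class II genes had 0 of 10 at that p, with H2-Aa at 20.5, 91.5 and 9.54 CPM in the saline tumors and 86.1, 35.6 and 59.2 CPM in the treated tumors. All 10 had a log2 fold change above 0, and the groups overlapped in each. Without saline tumor 2, 9 of the 10 were higher at that p, as were 1216 of all 16228 genes.

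Counts of genes of the mitochondrial genome spanned a wide range. Whether the mapping or counting of reads had a part in this was not tested. The subunit gene mt-Co1 was at 8899, 7903 and 6857 CPM in the saline tumors and 8625, 10355 and 9523 CPM in the treated tumors, with overlap, and mt-Co2 was at 10.4, 11.1 and 12.1 CPM in the saline tumors and 14.1, 20.3 and 15.6 CPM in the treated tumors, without overlap. Of 12 tested genes 0 had p under 0.05, and in 4 the lowest treated tumor was above the highest control (5.99% of all genes).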
